A study of Mus musculus with 108 samples.

Results

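The transcripts described here are the 200 that lost the most polyA signal between the germinal vesicle (GV) stage and metaphase II (MII) in control mouse oocytes. They were chosen by read counts scaled to library totals (CPM) in the control polyA libraries: of 55573 genes in the files, 6883 had a mean of at least 20 CPM at GV, and the 200 of these with the lowest log2((MII mean + 1)/(GV mean + 1)) were taken. The working label for the set is transcripts cleared during maturation, but loss of the molecules was not measured. In RiboMinus libraries, which do not select for poly(A) tails, the set's share of counts was higher in 3 control eggs of 1 female than in control GV oocytes, and in cKO oocytes it was 1.51-fold lower at MII than at GV (0.832% at GV and 0.701% at MII without 1 member, Gm26917). They are therefore called the 200 polyA-loss transcripts below.

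Each library came from 1 mouse oocyte, taken from a control female or from one whose oocytes alone lacked Exosc10 by design (cKO). EXOSC10 is a ribonuclease of the nuclear RNA exosome, which trims and degrades RNA from its 3′ end. The labels name no Cre driver, allele, strain or age, and call the other genotype only control. Oocytes at GV and after 3 hours in culture (GV3h) were kept in M2 medium outside the animal, whereas MII eggs were taken from the oviduct, so stage and handling cannot be told apart. The polyA libraries held 7 control oocytes of 2 females and 15 cKO oocytes of 2 females at GV, 8 control and 11 cKO oocytes of 3 females each at GV3h, and 8 control and 15 cKO eggs of 3 females each at MII. The RiboMinus libraries, primed with random hexamers after removal of ribosomal RNA, held 8 control oocytes and 7 cKO oocytes of 2 females each at GV, and 3 control eggs of 1 female and 4 cKO eggs of 2 females at MII. In every RiboMinus contrast with the control MII eggs, the condition and that female cannot be told apart.

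Gene counts per library ranged from 4638718 to 8735914 in polyA and from 12319658 to 62675760 in RiboMinus libraries. The highest was that of 1 cKO MII egg of female V1166, and the other cKO MII eggs had 20678209 to 25149258. Counts were summed per female for the tests, so that egg makes up most of the sum of V1166. Exosc10 matched the labels: its highest cKO value was 8.49 CPM and its lowest control value was 38.5 CPM. All 12 oocyte markers averaged at least 1 CPM in each group, with summed levels of at least 6885 CPM. The 16 cumulus and granulosa markers summed to 71.7 to 216 CPM, and the sums of GV control oocytes (85.9 to 123 CPM) and MII control eggs (86.4 to 136 CPM) in polyA libraries overlapped. The 12 theca, stroma, blood and oviduct markers summed to 69.4 to 81.8 CPM at GV and 76.1 to 152 CPM at MII in control polyA libraries (medians 77.8 and 118). In control RiboMinus libraries they summed to 49.2 to 79.3 CPM at GV and 27.2 to 29.3 CPM at MII, without overlap, and in cKO RiboMinus libraries to 59.8 to 140 CPM and 116 to 204 CPM. Their part in the stage changes was not tested. The spike-in RNA has 0 lines in the files, so every change is a shift within a library's own total, and how much RNA the whole oocyte held is not known.

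A fully grown oocyte makes almost no new RNA and matures on stored messages. Many of these messages lose their poly(A) tails after meiosis resumes, while others gain tails and are translated. The U-rich cytoplasmic polyadenylation element near the hexamer AAUAAA marks many messages whose tails grow at that time. Capture on oligo(dT) needs a tail, so a drop in a polyA library can come from fewer molecules or from shorter tails, and the polyA libraries alone cannot separate these.

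The 200 transcripts were short and had short 3′ UTRs. Among the 185 with a protein-coding main transcript in the GENCODE M21 annotation of mm10, the median spliced length was 1117 bases, beside 3144 bases in 6499 eligible genes with such a transcript. The median coding length was 597 bases beside 1458, and the median 3′ UTR was 210 bases beside 1029, counting only genes with an annotated UTR. A 3′ UTR of under 100 bases, or none, was annotated for 28.1% of these 185 and for 5.25% of the eligible genes. The hexamer AATAAA stood in the last 50 bases of 87 of the 185 transcripts (47%), beside 63.7% of the eligible genes. In the last 100 bases of the 3′ UTR, read on the transcript strand in the 133 members and 6158 eligible genes with a UTR that long, TTTTAT or TTTTAAT occurred in 8.27% of members and 21.4% of eligible genes. The Pumilio-type motif TGTANATA occurred in 1.5% and 5.68%, and the AU-rich TATTTAT in 3.76% and 4.77%. These are shares of annotated sequence and do not show which 3′ ends the oocyte used.

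The ends of some leading members are shown as examples that hold the hexamer close to the annotated cleavage site without the U-rich element beside it. They do not stand for the set, in which the hexamer was less frequent than among eligible genes (47% beside 63.7%). Ccnd2, at rank 4, also has such a site, in a 3′ UTR of 5173 bases, and is not shown. Each site is 30 bases of the 3′ UTR, 5′ to 3′, from the GENCODE M21 transcripts in mm10, with AATAAA in capitals. The sites lie at chr5:129881157-129881186 (minus strand, Chchd2), chr11:54870466-54870495 (plus, Hint1), chr10:80256764-80256793 (plus, Ndufs7), chr8:120674178-120674207 (plus, Cox4i1) and chr2:174461077-174461106 (minus, Atp5e).
Chchd2: ttaaaaaaAATAAAttggttattctgaagt
Hint1: ctgtgcctAATAAAagacattgttgcacgt
Ndufs7: atcccttgtgAATAAAcccatcctgatcca
Cox4i1: tccatgctAATAAAagaccagtttacgtgg
Atp5e: actatgccAATAAAttaacatggttcactt

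A pair of members that do carry the element is shown for contrast, chosen after the sequences were seen, with AATAAA and the TTTTAT or TTTTAAT in capitals. Their 3′ UTRs have 90 (Setd4) and 81 bases (Mrpl14), so neither is among the 133 members of the motif count above. Setd4, which encodes a SET-domain methyltransferase, has its site at chr16:93583460-93583489 on the minus strand. Mrpl14, a protein of the large mitochondrial ribosomal subunit, has its site at chr17:45698465-45698494 on the plus strand.
Setd4: aggttggAATAAAcagacTTTTATatgaaa
Mrpl14: AATAAAtgTTTTAATgtatgttttcttcct

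Membership and polyA change both went with 3′ UTR length across the eligible genes, members included. Of eligible genes with a 3′ UTR of 1 to 99 bases, 18.3% were members (50 of 273), and the percentage was 7.7% at 100 to 249 bases, 2.35% at 250 to 999 bases and 0.853% at 1000 bases or more. In cKO oocytes, whose libraries the choice did not use, the median log2 change from GV to MII over all eligible genes of these classes was -1.43, -0.45, 0.02 and 0.40 in polyA libraries. The same classes had RiboMinus medians of -0.31, -0.01, 0.01 and -0.05 in cKO oocytes and of -0.05, 0.16, 0.00 and -0.10 in control oocytes. Eligible genes with TTTTAT or TTTTAAT in the last 100 bases had a polyA cKO median of 0.72, beside 0.06 for those with neither. Among members, the polyA cKO median was similar in every length class (from -3.93 to -3.49). Members of each class passed the same cutoff in control polyA libraries, so this similarity says little about length within the set. These medians are descriptions over genes, which are not replicates.

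**Figure D1:**
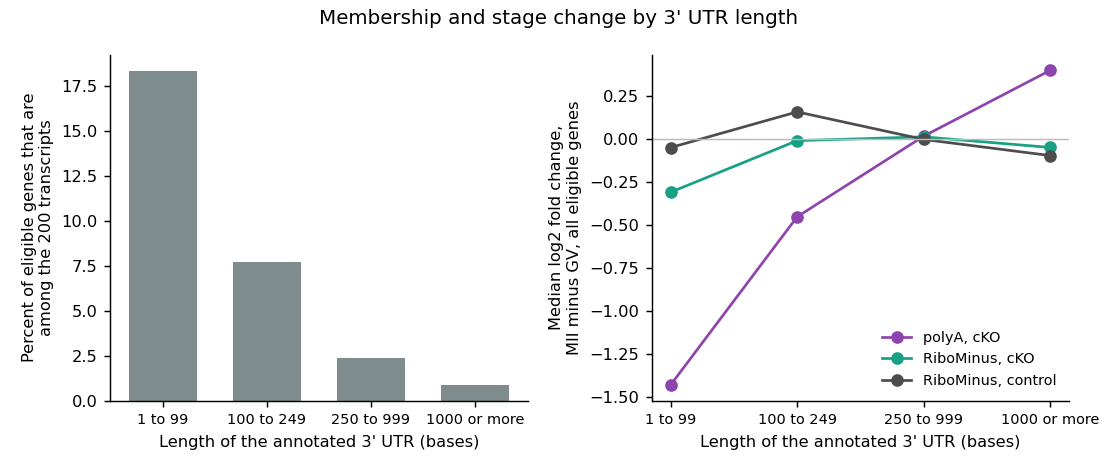
Left, bars give the percentage of eligible genes that belong to the 200 polyA-loss transcripts in each class of annotated 3′ UTR length (bases). Right, points joined by lines give the median log2 fold change from GV to MII over all eligible genes of the class, and the polyA cKO medians run from -1.43 in the shortest class to 0.40 in the longest while the RiboMinus medians stay between -0.31 and 0.16.

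Promoters were searched on both strands, in windows from 250 bases before to 50 bases after the start, for the core motif of NRF1, a factor known for nuclear genes of the mitochondrion. The core GCATGCGC or its reverse complement GCGCATGC occurred in 8.28% of 169 RefSeq promoters (GRCm38.p6) of 148 members, in 6.01% of promoters of eligible genes and in 2.71% of all promoters of that table.

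Many members encode proteins of the mitochondrion and the ribosome. The set held 23 of 71 eligible nuclear-encoded genes of the respiratory chain and ATP synthase (32.4%), among them the complex I subunit Ndufs7, the cytochrome c oxidase subunit Cox4i1 and the ATP synthase subunit Atp5e. It held 14 of 41 cytosolic ribosomal protein genes (34.1%), such as Rpl39 and Rps15, and 14 of 64 mitochondrial ribosomal protein genes (21.9%), such as Mrpl33 and Mrpl12. Of 32 eligible proteasome subunits, 4 were members (Psmb4, Psmb7, Psmb5 and Psmb1). Of eligible genes as a whole 200 of 6883 were members by construction. No member came from the eligible genes of the mRNA clearance machinery (19), maternal mRNA storage and translation (13), messages known to be translated during maturation (16) or the meiotic cell cycle (22). The same held for the oocyte markers (12), oocyte transcription factors (10) and solute carriers (93). At the share of 200 in 6883, lists of these sizes would hold few members or none. These counts describe the choice and were not tested.

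The values that chose the set are given once, as a description. Chchd2, which encodes a mitochondrial intermembrane space protein, ranked first, with 297 CPM at GV and 3.04 CPM at MII as control means (log2 ratio -6.21). Hint1, a nucleotide hydrolase, followed at -6.06, Ndufs7 at -5.96, the G1 cyclin gene Ccnd2 at -5.94 and Cox4i1 at -5.87. The last 3 members were Uqcr11 (-3.97), Ubxn11 (-3.97) and Polr2i (-3.97). The first 3 genes outside were the oocyte transcription factor gene Figla (-3.95), Rps27a (-3.95) and Uqcrh (-3.95), so the edge of the set does not mark a gap.

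In control oocytes, the members held 3.11% ± 0.33 (SD, n = 7 oocytes) of polyA counts at GV, 3.00% ± 0.31 (n = 8) at GV3h and 0.108% ± 0.012 (n = 8) at MII. In cKO oocytes the shares were 3.12% ± 0.34 (n = 15), 3.28% ± 0.35 (n = 11) and 0.26% ± 0.058 (n = 15). The cKO share thus fell 12-fold from GV to MII, and the highest cKO egg (0.345%) lay below the lowest cKO oocyte at GV (2.57%). At MII each cKO egg (0.15% to 0.345%) had a higher share than each control egg (0.0923% to 0.129%). The control MII level was used in the choice, so that difference is a description only.

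In RiboMinus libraries the shares of the 2 stages lay closer together. The members held 0.945% ± 0.104 (SD, n = 8) of counts in control GV oocytes and 1.18% ± 0.09 (n = 3) in control MII eggs, and each of the 3 eggs (1.1%, 1.18% and 1.28%) lay above the 8 GV oocytes (0.719% to 1.03%). The cKO share was 1.11% ± 0.17 (n = 7) at GV and 0.737% ± 0.185 (n = 4) at MII. At MII the cKO females stood apart: the 2 eggs of female V1166 were at 0.532% and 0.629%, and those of V1167 at 0.884% and 0.901%. Gm26917, a long noncoding RNA classed as rRNA-like, reached 4924 CPM in a cKO GV oocyte. Whether reads of ribosomal RNA enter its counts, here or in its values below, was not tested. Without Gm26917, the cKO GV share was 0.832% ± 0.038 and the cKO MII share 0.701% ± 0.204.

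**Figure D2:**
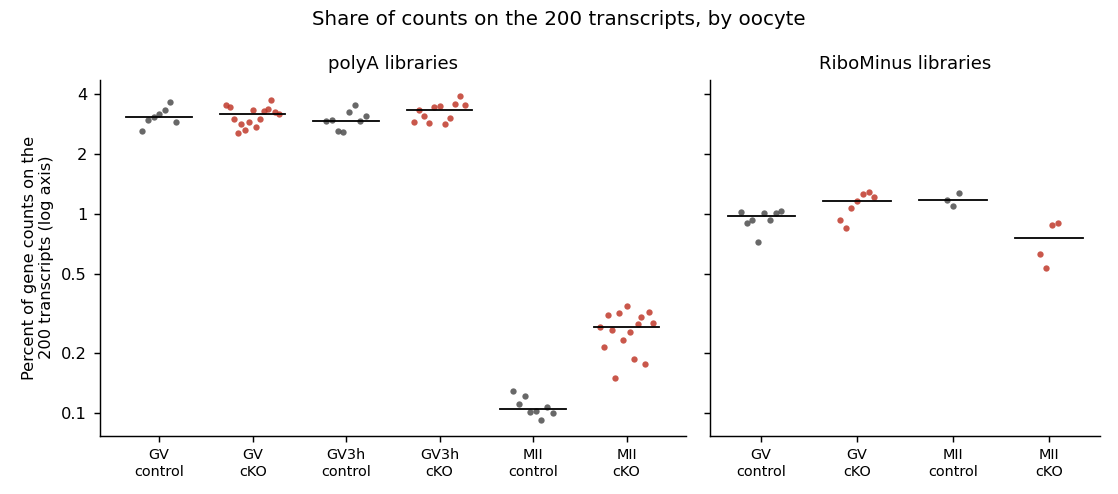
Percentage of all gene counts that fell on the 200 polyA-loss transcripts (log axis), with 1 point per oocyte (grey, control; red, cKO) and a line at the group median, for polyA libraries (left) and RiboMinus libraries (right). PolyA shares sit near 3% at GV and GV3h and below 0.35% at MII, while RiboMinus shares range from 0.532% to 1.28% in all groups.

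In cKO oocytes, whose libraries the choice did not use, the members' polyA level fell after GV3h: the median log2 ratio was 0.05 from GV to GV3h and -3.92 from GV3h to MII, beside -0.02 and -0.33 over all eligible genes. The control GV and MII levels chose the set, so the control ratios are descriptions. From GV to GV3h the control median was -0.14, beside -0.01 over all eligible genes, and 4 members were at least 2-fold lower in control GV3h oocytes (0.174% of eligible genes were). From GV3h to MII the control median was -4.32. The 4 members lower in control GV3h oocytes were Ccnd2, Gm26917, Pxdn and Coro2b, named because they are the exceptions. Ccnd2 had control polyA values of 8.36, 19.3 and 168 CPM (lowest, median, highest of 7) at GV, 0.192, 2.69 and 12.2 CPM at GV3h, and 0, 0 and 0.404 CPM at MII. The 3 GV oocytes of female V856 held 80.9 to 168 CPM of Ccnd2 and the 4 of V889 held 8.36 to 19.3 CPM.

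Pxdn and Gm26917 also differed between females of 1 genotype. Pxdn encodes peroxidasin, an enzyme that crosslinks basement membrane collagen. It had 58.2 to 78.7 CPM in GV control oocytes of V856 and at most 0.312 CPM in those of V889, and among cKO oocytes 95.9 to 158 CPM in those of V857 and at most 2.65 CPM in those of V888. Gm26917 had 106 to 183 CPM in the 3 GV oocytes of V856 and at most 3.9 CPM in the 4 of V889. Without V856, Pxdn, Gm26917, Ccnd2 and Coro2b all left the set, and 183 of the 200 transcripts remained in it. Without V889, 181 remained.

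The same transcripts fell in cKO oocytes. From GV to MII, 196 of 200 members were lower in cKO polyA libraries and 0 were higher (edgeR quasi-likelihood test on counts summed per female, 2 against 3 females, adjusted p under 0.05), beside 21.7% lower and 15.9% higher of 18353 genes tested. Of the 6883 eligible genes, 1779 were lower and 2282 higher. The median member log2 fold change was -3.64, beside -0.25 over all genes tested and 0.16 over the eligible genes. In 194 members each MII egg was lower than each GV oocyte, beside 25.6% of eligible genes. The 4 members that did not pass were E330017A01Rik (log2 fold change -0.75 ± 0.28 SE, adjusted p = 0.0695), Coro2b (-1.42 ± 1.42, adjusted p = 0.469), Rpl37rt (-1.53 ± 1.05, adjusted p = 0.293) and Gm48050 (-1.79 ± 0.68, adjusted p = 0.0725), all by edgeR. On library totals in place of TMM factors the median of all genes was lower, at -0.78, and 0 of the 196 calls were lost.

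All 23 respiratory chain members fell in cKO polyA libraries, with a median of -3.93 and the smallest change in the complex I subunit Ndufb9 (-1.96). Cox4i1 had 302, 515 and 725 CPM (lowest, median, highest of 15) in GV cKO oocytes and 6.85, 10.8 and 19.5 CPM (of 15) in MII cKO eggs. The ranges were far apart, and the log2 fold change was -4.79 ± 0.24 (SE, edgeR adjusted p = 0.00014). Atp5e had 62.6, 119 and 206 CPM at GV and 0.46, 1.37 and 3.57 CPM at MII, again without overlap (-5.93 ± 0.25, edgeR adjusted p = 0.00013). Chchd2 fell less, from 181, 336 and 423 CPM to 7.06, 32.6 and 73.5 CPM (-2.61 ± 0.42, edgeR adjusted p = 0.0027).

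Ribosomal protein messages followed the same course. All 14 cytosolic (median -4.01) and all 14 mitochondrial members (median -3.81) fell in cKO polyA libraries, as did the 4 proteasome members (median -3.05). Rpl39, a protein of the large ribosomal subunit, went from 36.2, 76.5 and 117 CPM at GV to 0.811, 2.4 and 4.03 CPM at MII in cKO oocytes (-4.38 ± 0.33, edgeR adjusted p = 0.000221). Mrpl33 went from 26.3, 61.1 and 85.7 CPM to 0.517, 1.76 and 2.78 CPM (-4.25 ± 0.38, edgeR adjusted p = 0.000362). Genes of ribosomal proteins have many processed copies in the genome, so their counts depend on how the authors' counting placed shared reads.

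The largest fitted falls rested on very low MII counts. Pxdn had 0 counts in all 15 cKO MII eggs, which against a floor of 3 counts over that group makes it at least 1697-fold lower than at GV, with the GV level carried by V857. Myg1, a mitochondrial and nucleolar exonuclease gene, had 36.3, 58 and 88.5 CPM at GV and 0, 0 and 1.85 CPM at MII (-6.72 ± 0.44, edgeR adjusted p = 0.00016). It overlaps exons of Pfdn5 on the same strand. Snrpd2, an Sm core protein of spliceosomal RNPs, had 32, 57.8 and 77 CPM at GV and 0.135, 0.656 and 1.38 CPM at MII (-6.02 ± 0.50, edgeR adjusted p = 0.000304).

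In RiboMinus libraries of control oocytes, no member passed the test between GV and MII in either direction (edgeR, one fit over 7 females, 0 of 200 lower and 0 higher), and of 25425 genes tested 0% were lower and 0.00787% higher (2 genes). At an unadjusted p under 0.05, 19 members were lower (9.5%) and 57 higher (28.5%), beside 10.9% and 12.2% of eligible genes. With only the groups compared in the fit, edgeR called 33 members lower and 78 higher, of 5732 genes called in either direction. DESeq2 called 13 members lower and 33 higher, of 1619 genes called. The median member log2 fold change was 0.30, beside -0.16 over all genes tested and -0.04 over the eligible genes.

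Respiratory chain members had RiboMinus values in both directions in control eggs, and none of the 23 was called. Cox4i1 had 42, 58.7 and 67.9 CPM (lowest, median, highest of 8) in RiboMinus GV control oocytes and 109, 110 and 120 CPM in the 3 MII control eggs. All 3 eggs were above all GV oocytes, and the log2 fold change of 1.10 ± 0.36 had an edgeR adjusted p of 0.215. Atp5e was also higher in each egg than in each GV oocyte, with 15.1, 23.7 and 48.5 CPM at GV and 60.2, 82.4 and 104 CPM at MII (1.75 ± 0.36, edgeR adjusted p = 0.11). Ndufb4, a complex I subunit gene, was lower in each egg than in each GV oocyte, with 1.08, 2.51 and 3.57 CPM at GV and 0.123, 0.147 and 0.422 CPM at MII (-3.33 ± 0.92, edgeR adjusted p = 0.161).

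Rpl39 had overlapping ranges at the RiboMinus control stages, with 10.9, 13.3 and 21.7 CPM at GV and 12.7, 15.4 and 19.7 CPM at MII (log2 fold change 0.13 ± 0.51, edgeR adjusted p = 0.955). Mrpl33 had 4.38, 7.04 and 17.2 CPM at GV and 16.2, 22.6 and 32.1 CPM at MII (1.64 ± 0.42, edgeR adjusted p = 0.141). The highest control values were those of Phpt1, a phosphohistidine phosphatase (2.40 ± 0.51, edgeR adjusted p = 0.114), and the complex III subunit Uqcr10 (2.19 ± 0.37, adjusted p = 0.0861). By list, the RiboMinus control medians were 0.75 for the respiratory chain, 0.66 for mitochondrial and 0.22 for cytosolic ribosomal proteins and 0.17 for the proteasome, with 0 members of each called.

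Some members had lower RiboMinus values at MII, though none passed the test in control oocytes. In control oocytes 21 members had a RiboMinus mean at least 2-fold lower at MII (10.5%), beside 7.16% of eligible genes, and 44 had a mean at least 2-fold higher, beside 6.42%. Each egg was below each GV oocyte for 30 members (15%), beside 20.1% of eligible genes, and above for 58 (29%), beside 16.9%. Ccnd2 had 2.74, 37.6 and 75.2 CPM in the 8 RiboMinus GV control oocytes and 0, 0 and 2.53 CPM in the 3 MII control eggs (log2 fold change -5.50 ± 1.71, edgeR adjusted p = 0.197). Upp1, the uridine phosphorylase of pyrimidine salvage, had 154, 213 and 251 CPM at GV and 46.2, 55.2 and 55.4 CPM at MII, without overlap (-1.89 ± 0.78, edgeR adjusted p = 0.306). Khdc3, a subunit of the subcortical maternal complex that is needed for early cleavage, had 212, 288 and 436 CPM at GV and 63.3, 89.5 and 117 CPM at MII (-1.68 ± 0.90, edgeR adjusted p = 0.421). Khdc3 shares exon sequence with the readthrough gene Gm20509 on the same strand, so reads of the 2 cannot be fully told apart.

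**Figure D3:**
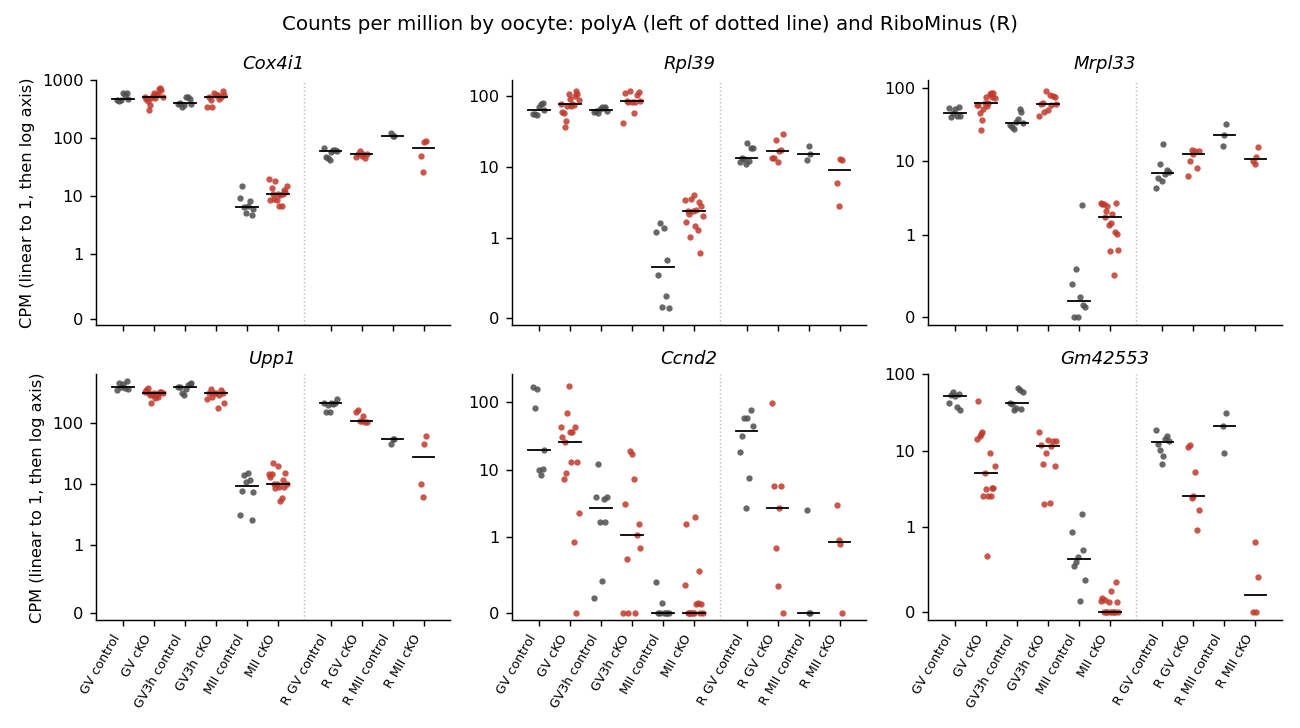
CPM of 6 members in each oocyte (axis linear to 1, then log; grey, control; red, cKO; line, median), with polyA groups left of the dotted line and RiboMinus groups (R) right of it. Cox4i1, Rpl39 and Mrpl33 are far lower at MII than at GV in polyA groups, and in RiboMinus groups the eggs lie above or near the GV oocytes except for the lower cKO eggs, whereas Upp1 and Ccnd2 are low at MII in both library types and Gm42553 is lower in most cKO groups than in their controls.

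In RiboMinus libraries of cKO oocytes, 5 members were lower at MII and 0 higher (edgeR), 2.5% of the 200 beside 1.71% lower and 0.61% higher of all genes tested, and 4% lower of the eligible genes. Each egg was below each GV oocyte for 34 members (17%), beside 9.14% of eligible genes, and above for 5 (2.5%), beside 6.97%. The mean was at least 2-fold lower for 30 members (15%), beside 9.24%, and at least 2-fold higher for 1, beside 2.27%. The 5 called were Gm42553, the endosomal Rab7-activator subunit Mon1a, the alanyl-tRNA deacylase gene Aarsd1, Gm27029 and Wdr18, of which the last 2 are outside the naming rule. The number called changed with the MII female left out (V1166 or V1167), and each such fit leaves 1 cKO female at MII. The median over members was -0.27, beside -0.03 over the eligible genes, and the medians by list were -0.67 for cytosolic ribosomal proteins, -0.27 for the respiratory chain and -0.11 for mitochondrial ribosomal proteins. Cox4i1 had 45.5, 53 and 60.5 CPM in the 7 GV oocytes, 49.6 and 25.5 CPM in the eggs of V1166 and 86.1 and 89.2 CPM in those of V1167 (log2 fold change 0.28 ± 0.30, edgeR adjusted p = 0.635).

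The difference between the library types was tested in cKO oocytes, whose libraries did not choose the set; this test was added after the data were seen. For 175 of 200 members the change from GV to MII was more negative in polyA than in RiboMinus libraries and for 0 it was more positive (edgeR interaction, adjusted p under 0.05), beside 7.38% and 4.93% of 22738 genes tested; of the 6883 eligible genes, 1027 were more negative and 978 more positive. The median member difference was -3.31, beside -0.38 over all genes tested and 0.25 over the eligible genes. Cox4i1 differed by -5.11 ± 0.43 (edgeR adjusted p = 0.000255), Atp5e by -5.51 ± 0.41 (adjusted p = 0.000213) and Rpl39 by -3.31 ± 0.58 (adjusted p = 0.00437). All 14 cytosolic and all 14 mitochondrial ribosomal protein members passed, as did 22 of the 23 respiratory chain members. The polyA and RiboMinus oocytes came from different females, so the library type and the female cannot be told apart.

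For 25 members the difference did not pass. Ccnd2 differed by -2.70 ± 1.62 (edgeR adjusted p = 0.301), Upp1 by -1.87 ± 0.73 (adjusted p = 0.118), Tyms, the thymidylate synthase gene, by -2.14 ± 0.80 (adjusted p = 0.104) and Khdc3 by -0.64 ± 0.82 (adjusted p = 0.657). The smallest differences were those of Rpl37rt (-0.19 ± 1.41, adjusted p = 0.961) and E330017A01Rik (-0.35 ± 0.61, adjusted p = 0.751).

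**Figure D4:**
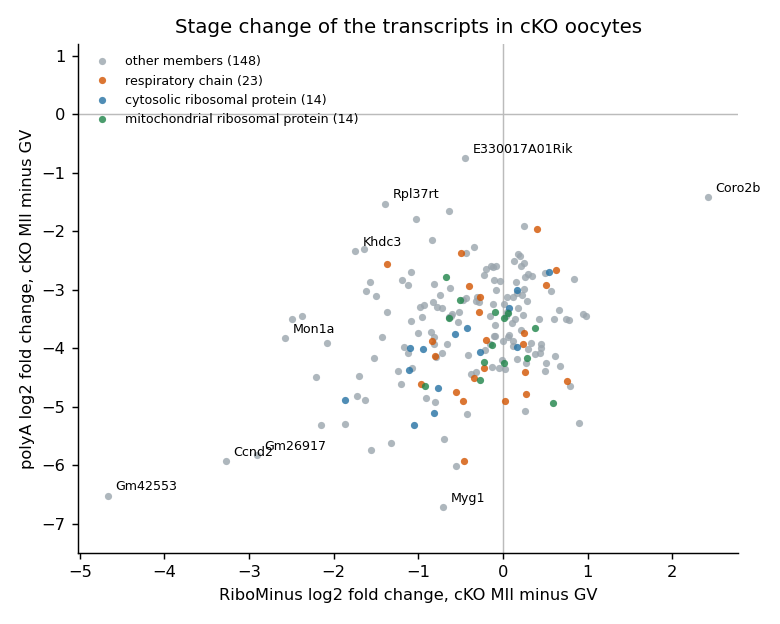
Each point is 1 of 199 members in cKO oocytes, placed by its log2 fold change from GV to MII in RiboMinus libraries (horizontal) and polyA libraries (vertical), with the colours giving 3 gene lists; Pxdn, at 0 counts in the polyA eggs, is not drawn. All points lie below 0 on the polyA axis, most of them near 0 on the RiboMinus axis, and Gm42553, Ccnd2 and Gm26917 lie low on both.

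The level of a member in a polyA library relative to its RiboMinus level turned over with stage. At GV the median log2 ratio of polyA to RiboMinus CPM over members was 1.68 in control and 1.89 in cKO oocytes, and at MII it was -3.04 and -1.70. Over all eligible genes the same 4 medians were 0.07, 0.11, -0.44 and -0.31. At GV 164 members (82%) were at least 2-fold higher in control polyA libraries, and at MII 188 (94%) were at least 2-fold lower; the background shares were 19.2% and 35.2%. The control polyA levels entered the choice, so the control values are descriptions.

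Between genotypes, members were called in both directions at GV3h. At GV in polyA libraries, which the choice used on the control side, the median cKO minus control difference was -0.09 (-0.16 over the eligible genes), a description. On group mean CPM, which is on library totals, the medians were 0.11 and 0.05, so the sign changed with the scaling. At GV3h, in libraries the choice did not use, 47 of 199 tested members (23.6%) were higher and 25 (12.6%) lower in cKO oocytes (edgeR, 3 against 3 females), beside 20.9% higher and 18.7% lower of 16844 genes tested. Among the 6882 eligible genes tested, from which the members were drawn, 11.9% were higher and 32.5% lower. The member share of higher calls was thus near that of all genes and above that of the eligible genes, and the share of lower calls was below both; these differences in share were not tested. The median member difference was 0.14, beside 0.04 over all genes tested and -0.17 over the eligible genes. With all 6 polyA groups in one fit, 16 members were higher and 15 lower. On library totals, where the median of all genes was 0.25, 79 were higher and 14 lower. Without control female V982 22 were higher, without V951 25 and without cKO female V993 27. Without cKO female V946, 16 were lower.

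The genes that were higher at GV3h included 11 of the 23 respiratory chain members, with 1 lower (Ndufv1), 6 of the 14 cytosolic ribosomal protein members and 5 of the 14 mitochondrial ones, with 0 lower in both, beside 23.6% of all members tested, 11.9% of eligible genes and 20.9% of all genes. Uqcr10 had 36.4, 42.4 and 53.9 CPM in the 8 control oocytes and 61.9, 110 and 141 CPM in the 11 cKO oocytes, without overlap (log2 fold change 1.10 ± 0.15, edgeR adjusted p = 0.000743). Avpi1, a vasopressin-induced gene, had 63.9, 75.2 and 110 CPM in controls and 113, 279 and 483 CPM in cKO oocytes (1.65 ± 0.24, edgeR adjusted p = 0.000875). Gm26917 had at most 0.76 CPM in the controls and 78.1, 525 and 1243 CPM in cKO oocytes (10.75 ± 0.72, edgeR adjusted p = 8.85e-05).

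Lower at GV3h were Gm42553, Fgf8, Rpl37rt, the serine protease gene Prss12 and Tyms, in order of fold change. Fgf8, an oocyte-secreted growth factor that acts on cumulus cells, had 83.4, 105 and 127 CPM in controls and 16.4, 39.2 and 60.5 CPM in cKO oocytes, without overlap (-1.61 ± 0.20, edgeR adjusted p = 0.000514). Tyms had 90.9, 120 and 168 CPM in controls and 28.3, 56.8 and 81.8 CPM in cKO oocytes (-1.26 ± 0.18, edgeR adjusted p = 0.000914). Gm42553, annotated as a transcript to be experimentally checked, had 34.4, 42 and 66.1 CPM in controls and 2.01, 11.6 and 17.7 CPM in cKO oocytes (-2.34 ± 0.22, edgeR adjusted p = 0.000226).

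In RiboMinus libraries at GV, 0 members passed between genotypes (edgeR), beside 0.0275% higher and 0.00393% lower of all genes tested. At an unadjusted p under 0.05, 9 were higher (4.5%) and 23 lower (11.5%), beside 7.4% and 11.9% of eligible genes. DESeq2 called 5 members higher and 4 lower, of 1567 genes called in either direction. The median member difference was -0.22, beside 0.04 over all genes tested and -0.13 over the eligible genes. The largest values were Gm26917 (5.02 ± 0.75, edgeR adjusted p = 0.0803) and the transmembrane protein gene Ccdc107 (1.76 ± 0.40, adjusted p = 0.126) on the higher side, and Coro2b (-2.97 ± 0.89, adjusted p = 0.203) on the lower. Exons of Ccdc107 overlap Rmrp on the opposite strand, and the strand setting of the counts is not known.

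In RiboMinus libraries at MII, 29 of 200 members (14.5%) were lower and 1 higher in cKO eggs (edgeR), beside 3.69% lower and 3.61% higher of all genes tested. Among the 6883 eligible genes, 668 were lower and 226 higher. The median member difference was -0.82, beside 0.25 over all genes and -0.18 over the eligible genes. The control side was a single female, as stated above, so its spread was taken from the other groups. The calls and adjusted p-values of this contrast, here and below, therefore cannot separate genotype from that female. Leaving out a cKO female leaves 1 female on each side, and the number called changed with the female left out. On library totals, where the median of all genes was 0.45, 18 were lower. The 12 theca, stroma, blood and oviduct markers summed to 116 to 204 CPM in the 4 cKO eggs and to 27.2 to 29.3 CPM in the 3 control eggs, with 2 markers at 0 in every cKO egg (Cyp17a1 and Hba-a1) and 6 at 0 in every control egg (Col1a1, Col3a1, Cyp17a1, Hba-a1, Hbb-bs and Ptprc). The 16 cumulus and granulosa markers summed to 71.7 to 121 CPM in the cKO eggs and to 144 to 159 CPM in the control eggs, without overlap, with 4 at 0 in every cKO egg and 7 at 0 in every control egg. The part of either list in the result was not tested.

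Those 29 members, 14.5% of the set, included 4 of 23 respiratory chain members (Atp5e, Atp5j2, Atp5k and Ndufb11), 3 of 14 cytosolic ribosomal protein members (Rps15, Rpl39l and Rpl35) and 1 of 14 mitochondrial ones (Mrpl30), several of which are outside the naming rule. Ndufb4 had the third highest cKO minus control value of the members (2.38 ± 0.88, edgeR adjusted p = 0.125), with 0.29 to 3.14 CPM in the cKO eggs. Atp5e had 104, 60.2 and 82.4 CPM in the control eggs, and 11.5, 8.99, 13.4 and 16.9 CPM in the cKO eggs, without overlap (-2.87 ± 0.37, edgeR adjusted p = 0.013). Gm42553 had 21.1, 9.43 and 31.3 CPM in the control eggs, and 0, 0.822, 0 and 0.403 CPM in the cKO eggs (-6.91 ± 0.72, edgeR adjusted p = 0.0123). Rpl37rt, a retrotransposed copy of Rpl37 whose reads could be shared with its parent gene, had 64.3, 62 and 78.5 CPM in the control eggs, and 2.89, 2.18, 5.69 and 9.51 CPM in the cKO eggs (-3.99 ± 0.54, edgeR adjusted p = 0.0134). Mon1a had 25.3, 20.6 and 31.5 CPM in the control eggs, and 0.893, 3.1, 2.98 and 3.27 CPM in the cKO eggs (-3.76 ± 0.48, edgeR adjusted p = 0.013). Fgf8 was again lower, with 103, 103 and 105 CPM in the control eggs and 10.8, 9.82, 25.3 and 24.9 CPM in the cKO eggs (-2.78 ± 0.61, edgeR adjusted p = 0.0356).

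The 1 member called higher was Pxdn, at 0 counts in the 3 control eggs and at 0.67, 2.47, 4.45 and 0.645 CPM in the cKO eggs. It was at least 29.4-fold higher when the control eggs together were set at a floor of 3 counts, with an edgeR adjusted p of 0.0356. With a mean of at least 50 counts per female required, 199 members were tested and 0 were called higher. That 0 may only reflect removal of Pxdn by the filter, since its counts were low. The genotype difference in the RiboMinus stage change passed for 0 members (edgeR interaction), as for 0% of all genes tested. At an unadjusted p under 0.05, 47 members were lower (23.5%) and 2 higher (1%), beside 10.9% and 6.58% of eligible genes, and DESeq2 called 19 members of 1141 genes.

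**Figure D5:**
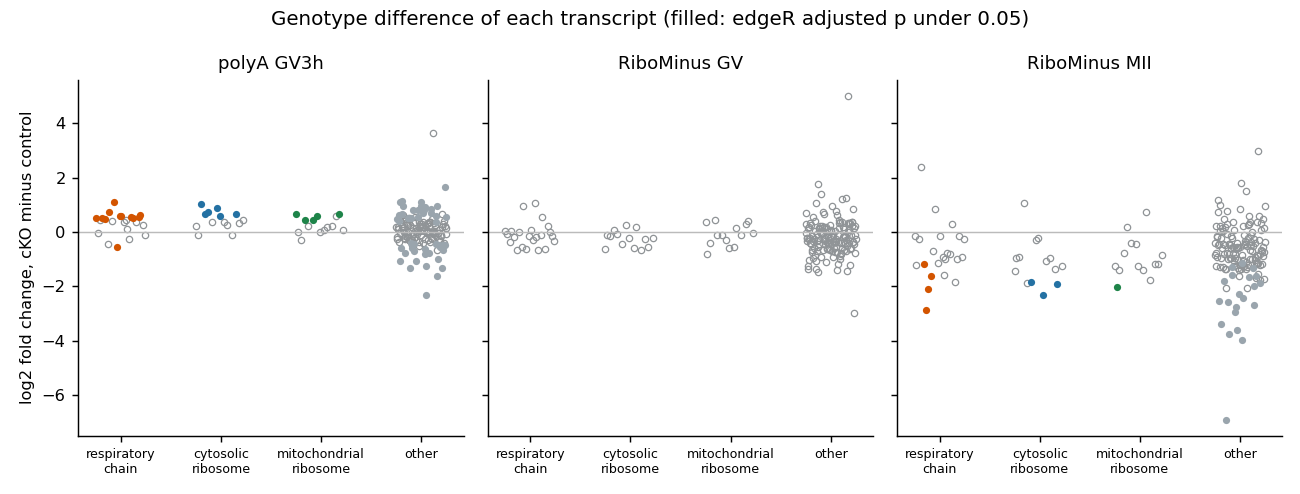
Log2 fold change of cKO against control for each member, by gene list, in polyA GV3h, RiboMinus GV and RiboMinus MII libraries (filled, edgeR adjusted p under 0.05; open, not passed). Filled points lie on both sides of 0 at GV3h (47 higher, 25 lower), are absent at RiboMinus GV and lie below 0 at RiboMinus MII (29 lower); Gm26917 at GV3h (10.75) and Pxdn at MII are off the scale and not drawn.

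At MII in polyA libraries the low control level chose the members, so the genotype values are a description, with no test, in 8 control and 15 cKO eggs. Over the 191 members fitted, the median cKO against control log2 fold change was 0.89, beside -0.04 over the eligible genes. Of these members 167 were higher and 24 lower in cKO eggs, down to -1.63 in Mocos. Chchd2 (3.21), Khdc3 (2.04) and E330017A01Rik (3.099) lay well above the median and do not stand for the set. Chchd2 had 0.678, 3.26 and 5.1 CPM in the control eggs and 7.06, 32.6 and 73.5 CPM in the cKO eggs. Khdc3 had 41.4, 86.3 and 116 CPM in the control eggs and 111, 379 and 771 CPM in the cKO eggs, with overlap at 1 end of each range. E330017A01Rik had 27.7, 45.9 and 59.6 CPM and 108, 367 and 700 CPM, without overlap.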

How the data were processed

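RNA was measured in single mouse oocytes. The deposited files hold raw read counts per Ensembl gene, not normalized, and summary lines for reads outside genes, which were left out (reads in no gene were 5.85% to 14.2% of all in polyA and 8.34% to 12.4% in RiboMinus libraries). Per the labels' protocols, the authors isolated polyA RNA on oligo(dT) beads, amplified the cDNA and made Nextera libraries, and used random hexamers and the Ovation Solo kit for RiboMinus libraries. Per the submitters' processing notes, the tools were cutadapt 2.5, FastQC 0.11.8, STAR 2.7.2a, SAMtools 1.9, HTSeq 0.9.1, R 3.5.1 and DESeq2 1.24.0, with build mm10. Strand setting and annotation release are not given in the sources used here. Of the members, 88 share exon positions with another gene (31 on the same strand), and these counts are uncertain.

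CPM values are on library totals. Counts were summed per female, the replicate, since oocytes of 1 female are not independent, and tested with edgeR 4.0.16 in R 4.3.3 (filterByExpr, TMM, glmQLFit, glmQLFTest, two-sided, Benjamini-Hochberg over all genes tested, adjusted p under 0.05). PolyA contrasts used only the groups compared, and RiboMinus contrasts used 1 fit over 4 groups, in which the single control MII female takes its spread from the other groups. Nothing in the labels says whether females of a group were handled on separate days. The scripts were tested on simulated counts. Alternatives were DESeq2 1.42.0, other scalings and filters, oocytes as replicates, other groups in the fit and each female left out. Transcript features came from GENCODE M21, using 1 protein-coding transcript per gene (best APPRIS level, then longest coding sequence). The members, gene lists and tests were chosen with earlier results of these data known. Named genes were the 15 lowest by the rule, 3 on each side of its edge, the 5 lowest and 5 highest members of each tested contrast, and up to 5 per gene list. The 22 rRNA files were not used. Sums, figures and shares used Python 3.11.15, pandas 2.3.3, numpy 2.4.6 and matplotlib 3.10.9.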

Additional observations from a re-analysis of the deposited data

Results flagged for a closer look

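Of 150 groups of 4 to 10 oocytes checked, in the member share and in the 24 genes described in full, 16 had a lowest or highest oocyte far from the others. The cutoff (Dixon's ratio) is set at about 1 in 20 for independent, normally distributed values. Oocytes of 1 female are not independent, and some flagged values lie under 1 CPM. The number flagged therefore cannot be set against that rate. In the RiboMinus GV control group 1 oocyte of V1132 had a member share of 0.719%, with the next at 0.897%. In the same group 1 oocyte of V1133 was high for Atp5e (48.5 CPM, next 29.2), Mrpl33 (17.2 CPM, next 9.25) and Uqcr10 (10.1 CPM, next 7.35). Among polyA MII control eggs, 1 egg of V853 was high for Atp5e (5.7 CPM, next 3.52), Mrpl33 (2.58 CPM, next 0.591) and Pxdn (1.63 CPM, next 0), and other single eggs were high for Hint1 (6.66 CPM), Cox4i1 (14.7 CPM), Ccnd2 (0.404 CPM) and Gm26917 (0.709 CPM). Among polyA GV3h control oocytes single oocytes were high for Ccnd2 (12.2 CPM), Pxdn (0.192 CPM) and Uqcr10 (53.9 CPM). In RiboMinus cKO libraries 1 GV oocyte of V1126 had 97.3 CPM of Ccnd2, with the next at 5.83 CPM, and 1 MII egg of V1166 had 0.893 CPM of Mon1a, with the others at 2.98 CPM or more.

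The change from GV to MII in cKO oocytes differed between polyA and RiboMinus libraries for 175 members by the test of the difference itself.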

How the results depend on the processing

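The fall of the members in cKO polyA libraries held under each alternative run (196 called lower, 194 to 200), as did the more negative polyA change (175 called, 156 to 190). The RiboMinus counts, which rest on 7 females with 1 at control MII, did not hold. With DESeq2, the calls were 13 lower and 33 higher for control GV to MII (0 and 0 with edgeR), 25 lower for cKO GV to MII (5), 5 higher and 4 lower for genotype at GV (0 and 0), 7 higher and 59 lower for genotype at MII (1 and 29), and 19 for the genotype difference in stage change (0). With all genes of at least 1 count these were 13 and 30, 33, 3 and 6, 3 and 59, and 18. With oocytes as replicates, which are not independent, they were 27 and 65, 47, 14 and 37, 11 and 89, and 49, and 40 members were lower at GV3h. Calls over all genes, in either direction, rose too. For the same contrasts in order they were 2, 591, 8, 1857 and 0 in the main fits and 1619, 2985, 1567, 5313 and 1141 with DESeq2. With all genes of at least 1 count they were 1148, 2794, 1760, 4421 and 1072. With oocytes as replicates they were 3715, 4284, 4922, 6620 and 2837. With only the groups compared, 33 members were lower and 78 higher for control GV to MII, 0 lower for cKO GV to MII and 2 higher for genotype at MII. On library totals 3 were lower for cKO GV to MII and 18 for genotype at MII, and at GV3h 79 were higher and 14 lower. With all 6 polyA groups in one fit, 16 were higher and 15 lower at GV3h. With a mean of at least 50 counts per female, 0 of the 199 members then tested were higher for genotype at MII. The cause of these differences was not tested.

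Leaving out 1 female gave 0 to 37 lower for RiboMinus cKO GV to MII (0 without V1166, 37 without V1167, 1 without V1131), 22 to 54 higher and 16 to 31 lower at GV3h, 0 to 3 higher and 0 to 4 lower for RiboMinus genotype at GV (3 and 4 without V1126), and 3 higher and 20 to 73 lower for RiboMinus genotype at MII (3 higher without V1166 or V1167). Every such RiboMinus fit leaves 1 female in the group concerned. Without V1166 or V1167, genotype at MII compares 1 female with 1 female, and the spread comes only from the GV groups. Those counts therefore cannot show a genotype difference. Of the 200 members, 177 to 188 remained with 1 control female left out, 132 with at least 50 CPM at GV, 132 with a pseudocount of 5 and 94 under every alternative to the rule. The share of cKO RiboMinus GV counts was 0.832% without Gm26917. No paired analysis was possible because the groups compared share no female and the oocyte numbers only name oocytes within a female.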
